A study of Mus musculus with 3 samples.

Results

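Among 14353 ovarian cells of female mice, 877 steroid-making cells were singled out from the 929 cells that the authors named luteinized granulosa cells. A cell was taken where its unique molecular identifiers (UMIs, counted RNA molecules) of Cyp17a1, Aldh1a1 and Mgarp together equalled or exceeded those of Akr1c18 and Ptgfr. The first 3 genes are known from theca cells, and the other pair from luteal cells. The selected cells had a median of 51 UMIs of the theca genes and 0 of the luteal pair, and 826 of them had no UMI of that pair. The 52 cells of the class left outside had medians of 1 and 14.5. At the limit, the nearest selected cells were above equality by 0 UMIs in 1 cell and by 1 UMI in the next ones, and the nearest cells outside were below it by 1 or 2 UMIs. Within 5 UMIs of equality lay 19 selected and 16 other cells. The cells were thus chosen by these measured counts, which are given as a description.

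Theca cells lie around the ovarian follicle, outside its basement membrane. Luteinizing hormone acts on them through its receptor and cyclic AMP, and they turn cholesterol into androgens: Star carries cholesterol into the mitochondrion, Cyp11a1 with its electron donor Fdx1 cleaves the side chain, Hsd3b1 makes progesterone and Cyp17a1 makes androgens. Granulosa cells convert these androgens to oestrogen, and after ovulation both cell types contribute to the corpus luteum, which makes progesterone.

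The C57BL/6 females fell into 3 groups: young mice aged 3 months, aged mice without drug, and aged mice that received the glucose-lowering drug metformin at 350 mg/kg/day in the drinking water for 6 months from the age of 14 months. The sources used here do not give the age of the untreated aged mice behind these cells, though the design describes a control without drug beside the treated mice. The left ovaries of 3 mice per group were joined in 1 suspension, digested for 30 min at 37 °C, passed through a 40 µm strainer that held back oocytes and taken to flow sorting, whose gate is not given. Each suspension carried its own lipid-linked tag, and cells of all 3 were loaded together on 3 droplet runs, pools A, B and C. A group is therefore 1 sample, so no test between groups was possible. The pools are technical repeats, and every interval here is a 95% interval that covers counting error only.

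Of the 877 cells, 739 were young (202, 217 and 320 in pools A, B and C), 59 were aged (28, 20 and 11) and 79 came from treated mice (27, 20 and 32). Their median depths were 8143, 6983 and 5884 UMIs per cell, against 5277.5, 3034 and 2752 over all cells of the groups. Median mitochondrial shares were 8.48%, 8.16% and 9.71%. The 11 aged cells of pool C stood apart, with a median of 3838 UMIs and a deposited S phase call in 54.5%. Across pools, 52 cells of the series shared a droplet barcode, and 1 of them was among the 877 cells. The deposited table marks 0 cells as doublets, and no doublet caller was run here. Levels below are in CPM, the UMIs of a gene per 1000000 UMIs of the same group of cells.

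The markers of the theca name were met unevenly, and Cyp17a1, Aldh1a1 and Mgarp among them also chose the cells. Aldh1a1, which makes retinoic acid (chromosome 19, 20492715 to 20643465, plus strand, GRCm38), had a UMI in 98.6% of the 877 cells. Mgarp, a mitochondrial protein of steroid-making tissues (chromosome 3, 51388412 to 51396738, minus strand), and Cyp11a1 (chromosome 9, 58006411 to 58027023, plus strand) were each seen in 98.7%, and Hsd3b1 in 99.8%. Cyp17a1 (chromosome 19, 46667165 to 46673172, minus strand) was seen in only 222 cells, 25.3% (22.5 to 28.3). In T cells, which should lack it, the share was 1.44% at a median of 2018 UMIs, against 7940 in the steroid-making cells. It was 4.05% in follicular granulosa cells, at a nearer median of 7688 UMIs, and 8.64% in the 81 cells labelled OSE, at 3816 UMIs. Insl3, a peptide hormone of theca cells, was seen in 5.25%. Most of the cells thus carried the general steroid-making genes without a detected UMI of the androgen-forming enzyme, so they are called Aldh1a1/Mgarp cells here.

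Of genes outside the rule, the Aldh1a1/Mgarp cells held 97.3% of all Insl3 UMIs in the series and 86.4% of those of Cyp11a1. For the genes that chose them, the cells held 93.9% of Cyp17a1, 90.2% of Mgarp and 87.8% of Aldh1a1, shares that the rule favours. Their share of Star was smaller, 60.5%, with 19.2% in fibroblasts and 13.1% in the 52 remaining cells of the class. By CPM against all other cells, the leading genes were Serpina5 (111 against 0.511), Bpifb4 (109.5 against 1.16), Mgarp and Hao2 (664 against 8.46). Serpina5 is a protease inhibitor and Hao2 a peroxisomal hydroxy acid oxidase. Next came Aldh1a1, Cyp11a1, Nckap5, Folr1, Cst8, Adh1, Me1 and Sez6l2. The places of Mgarp and Aldh1a1 in this order were favoured by the rule. Folr1 takes up folate, Adh1 oxidises retinol and Me1, malic enzyme, makes NADPH.

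The 52 other cells of the class are described here by genes outside the rule. Their Star was 1036 CPM against 382 CPM in the Aldh1a1/Mgarp cells, and their Hsd3b1 2105 CPM against 4467 CPM. Cyp11a1 was 8826 CPM against 7150.4 CPM, and Prlr, the prolactin receptor, 1410.3 CPM against 1047 CPM. Since genes used by the rule vary together with many others in these cells, these differences describe the selection and were not tested.

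The share of Aldh1a1/Mgarp cells among all cells was lower in both aged groups than in young ovaries. In young mice it was 8.09%, 8.68% and 12.2% in pools A, B and C, and 9.70% (9.04 to 10.4) in all. In untreated aged mice it was 2.29%, 2.13% and 1.35%, and 1.98% (1.51 to 2.55) in all. In treated mice it was 2.06%, 1.94% and 2.27%, and 2.10% (1.67 to 2.62) in all. Every young pool was above every aged and treated pool, and the aged and treated pools overlapped.

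As a ratio, the aged share was 0.204 times the young share (0.154 to 0.266), with 0.282, 0.245 and 0.111 in the pools. The treated share was 1.06 times the aged share (0.749 to 1.51), so an increase or a decrease by a modest factor lies within counting error. Over non-immune cells alone the ratios were 0.195 (0.147 to 0.254) and 1.40 (0.988 to 1.998). Both comparisons share the untreated aged suspension. Digestion, straining and sorting can set such shares, and their part was not tested.

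**Figure D1:**
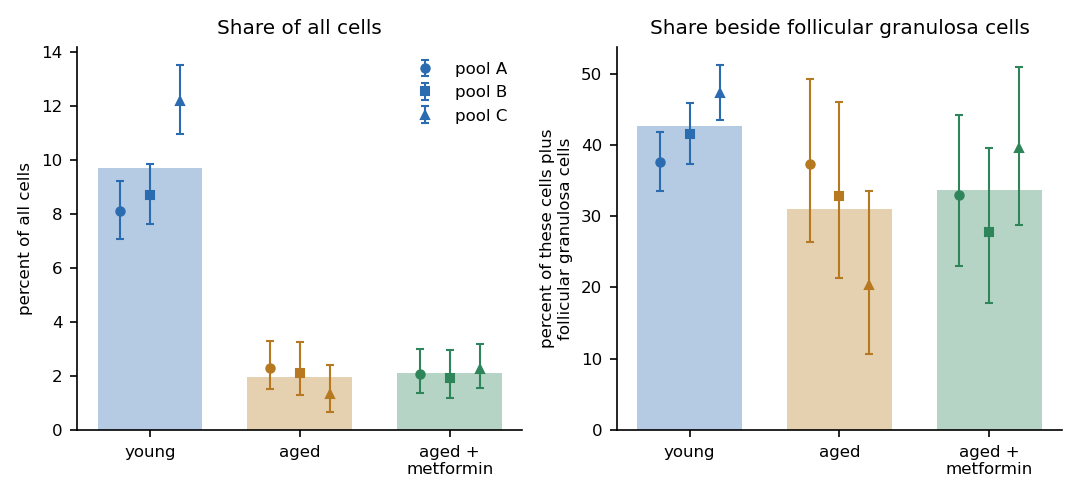
Percent of Aldh1a1/Mgarp cells (y axes) in young, aged and metformin-treated aged ovaries, over all cells (left) and over these cells plus follicular granulosa cells (right); bars are the 3 pools summed, points the single pools and error bars exact 95% binomial intervals. On the left every young pool lies above all others, at 8.09% to 12.2%; on the right the young pools, at 37.6% to 47.3%, lie above the aged pools, at 20.4% to 37.3%, and the treated pools overlap both.

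Follicular granulosa cells, the other steroid-making partner of the follicle, were fewer with age too. Per 100 follicular granulosa cells there were 74.2 Aldh1a1/Mgarp cells in young ovaries (60.3, 71.1 and 89.9 in the pools). The aged ovaries had 45.0 (59.6, 48.8 and 25.6), and the treated ones 50.6 (49.1, 38.5 and 65.3). As a share of both kinds of cell together, the Aldh1a1/Mgarp cells were 42.6%, 31.1% and 33.6%. The ratio of aged to young on this base was 0.729 (0.549 to 0.951), with 0.992, 0.789 and 0.430 in the pools, so pool C carried most of the difference. The ratio of treated to aged was 1.08 (0.763 to 1.54).

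Cyp17a1 was spread very unevenly over the Aldh1a1/Mgarp cells. No UMI was found in 655 cells, 54 cells had 1 or 2 UMIs, and 168 cells had 3 or more. The last group held 99.04% of the cells' Cyp17a1 UMIs, with a median of 18.5 and a maximum of 256 UMIs per cell. In young mice the share with 3 or more was 20.4% (17.6 to 23.5), with 23.3%, 17.1% and 20.9% in the pools. In aged mice it was 16.9% (8.44 to 28.97), from 10 cells, and in treated mice 8.86% (3.64 to 17.4), from 7 cells and with 0 of 20 in pool B.

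The ratio of these shares was 0.829 (0.390 to 1.57) for aged over young and 0.523 (0.169 to 1.52) for treated over aged, so neither difference was detectable at this number of cells. After every cell was thinned to 1000 UMIs, at least 1 Cyp17a1 UMI was seen in 16.96% of young, 13.6% of aged and 6.33% of treated cells. The same share was 0.642% in thinned T cells and 1.07% in thinned follicular granulosa cells. Cells with 3 or more UMIs were deeper: in young mice their median was 9689 UMIs against 7560.5 in cells with 0, and their median mitochondrial share was 7.16% against 8.91%.

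**Figure D2:**
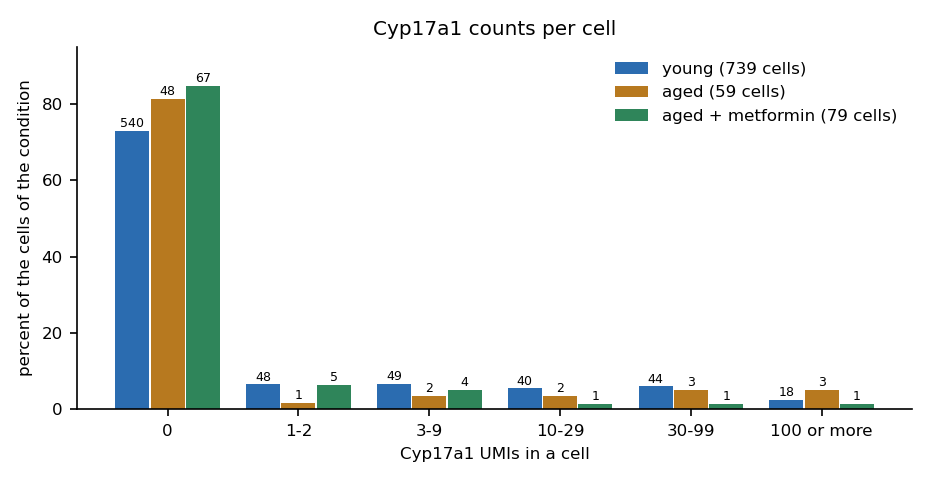
Percent of the Aldh1a1/Mgarp cells of each group (y axis) by the number of Cyp17a1 UMIs in a cell (x axis), with the number of cells above each bar. Between 73.1% and 84.8% of the cells had no UMI, while 18 young, 3 aged and 1 treated cell had 100 or more.

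Which other genes went with Cyp17a1 was described in the young cells, 151 with 3 or more UMIs against 540 with 0; this division was chosen after the data were seen, and the same cells gave both the division and the levels, so no test is given. Of 8371 genes with at least 50 UMIs, 280 were at least 2-fold higher with Cyp17a1 (3.34%) and 391 at least 2-fold lower (4.67%). Secretin (Sct), a peptide hormone, was 211, 168 and 237 CPM in the pools with Cyp17a1 against 8.86, 12.3 and 12.2 CPM without. Insl3 was 52.2, 22.6 and 26.3 CPM against 4.03, 0.616 and 3.33 CPM. Both hormones were higher in each pool, and the ranges did not overlap.

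Fabp5, a fatty acid carrier, was 299, 335 and 439 CPM against 26.6, 32.7 and 43.4 CPM. Fads2, a fatty acid desaturase, was 338 CPM against 44.6 CPM, and Ass1, argininosuccinate synthase, 48.8 CPM against 2.14 CPM. Enpep, a peptidase of the angiotensin system, was 99.6 and 159 CPM against 7.39 and 7.23 CPM in pools B and C but only 6.03 against 2.42 CPM in pool A. The remaining genes named by size on this side were Mia, Stk32a, Hspa12a, Gpha2 and Top2a, and 38.8% of the UMIs of Top2a, a gene of dividing cells, came from 1 cell.

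Some genes of luteinizing hormone signalling were also higher with Cyp17a1. Lhcgr, the receptor, was 299, 349 and 337 CPM against 192, 251 and 199.5 CPM. Prkar2b, a regulatory subunit of protein kinase A, was 597, 521 and 673 CPM against 206, 203 and 155 CPM. Pde10a, which breaks down cyclic AMP, was 62.6 CPM against 7.51 CPM, and Nr5a1, the transcription factor SF-1, 129 CPM against 71.2 CPM. For these 4 genes every pool with Cyp17a1 was above every pool without. Of the 17 measured genes of that signalling list, 8 were higher in every pool and 3 lower in every pool, beside 20.7% and 21.8% of 10482 genes.

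Cholesterol synthesis genes leaned the same way, as did an uptake receptor. Scarb1, which takes up cholesterol from high-density lipoprotein, was 315, 355 and 283 CPM against 77.4, 116 and 104 CPM. Of 18 cholesterol synthesis genes 14 were higher, 6 of them in every pool, and 4 were lower, none in every pool. Of all 10482 genes, 20.7% were higher and 21.8% lower in every pool. Their median log2 ratio was 0.67 against 0.03 for all genes, and 0.65, 0.04 and 0.95 in the pools.

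The steps from cholesterol to progesterone did not follow Cyp17a1. Cyp11a1 was 8015 CPM with Cyp17a1 and 7394 CPM without, a log2 ratio of 0.12 that became -0.03 without pool A. Fdx1 was 6449 and 6743 CPM, a log2 ratio of -0.06 that became 0.01 without pool B and 0.10 in cells without UMIs of immune markers. Hsd3b1 was 4669 and 4409 CPM. Star was lower with Cyp17a1, at 221, 231 and 174 CPM against 544, 505 and 411 CPM. So was Tspo, a mitochondrial outer membrane protein that binds cholesterol, at 172 CPM against 429 CPM. Over the 11 measured steroid synthesis genes, 6 were higher and 5 lower, with a median log2 ratio of 0.08.

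Of the genes that chose the cells, Aldh1a1 was 3981 CPM with Cyp17a1 and 3095 CPM without, while Mgarp was 1626 and 3349 CPM. Across 875 cells thinned to 1000 UMIs, Mgarp was among the genes most opposed to Cyp17a1, with a Spearman rho of -0.21, beside Gstm1 at -0.23 and Me1 at -0.22. The most alike were Prkar2b at 0.29, the mitochondrial chaperone Hspd1 at 0.24, the ADP/ATP carrier Slc25a5 at 0.23, Defb19 at 0.23 and Fabp3 at 0.21. The cells of this correlation share their libraries, and it is a weak one. The rule adds up Cyp17a1, Aldh1a1 and Mgarp, so it can itself favour an opposition between Mgarp and Cyp17a1 in the selected cells.

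The genes lower with Cyp17a1 included several luteal markers. Ptgfr, the prostaglandin F receptor, was 3.01 CPM against 40.5 CPM, Runx2 2.41 CPM against 39.9 CPM, Sfrp4, a Wnt antagonist, 13.2 CPM against 289 CPM, and Prlr 774 CPM against 1170.1 CPM. A UMI of Sfrp4 was seen in 9.93% of the cells with Cyp17a1 and 12.04% of those without. The shares were 1.99% and 7.04% for Ptgfr, 2.65% and 17.59% for Runx2, and 100% and 96.7% for Prlr. Apart from Prlr, these genes were thus seen in only a minority of the cells without Cyp17a1. Of 6 measured luteal markers 5 were lower, 4 of them in every pool. Ptgfr entered the selection of the cells, and the summed luteal markers of the cells without Cyp17a1, 1577 CPM, remained below the 10610.3 CPM of the 52 other cells of the class.

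Gpx3, a secreted glutathione peroxidase, was 68.3, 34.0 and 87.2 CPM against 1059.6, 1079.7 and 889.9 CPM. Ephx2, an epoxide hydrolase, was 22.1, 4.53 and 16.6 CPM against 388, 371 and 323 CPM. Abcb1b, an efflux pump, was 21.7 CPM against 337 CPM. Cemip, which degrades hyaluronan, Efemp1, a fibulin, and Tnc, a tenascin, had 0 UMIs in the 151 cells against 59.2, 49.1 and 45.7 CPM; against a floor of 3 UMIs over the group they were lower by at least 5.03, 4.77 and 4.66 on the log2 scale. The other genes named here were Nupr1, S100a6, Sgk1, Sbsn and Spp1, and 43.8% of the Spp1 UMIs came from 1 cell. Of the 18 genes of the whole antioxidant list, which holds Gpx3, 12 were higher with Cyp17a1 and 6 lower, with a median log2 ratio of 0.08. Of 22 collagen and matrix genes 13 were higher, 11 of them in every pool, 5 were lower in every pool, and the median was 0.42. The shares over all genes were 20.7% higher and 21.8% lower in every pool.

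Some differences went with markers of other cells. The granulosa markers summed to 1275 CPM with Cyp17a1 against 742 CPM without, of which Inha alone made 1054 and 595 CPM. Inha was seen in 95.4% and 77.4% of these cells, so it is also a gene of the cells themselves. Of 6 measured markers 4 were higher in every pool, beside 20.7% of all genes, and 2 were lower, Foxl2 and Nr5a2. Col1a2, a collagen of fibroblasts, was 207, 387 and 526 CPM with Cyp17a1 against 29.8, 141 and 133 CPM. The summed stromal fibroblast markers were 985 CPM against 535 CPM, most of it from Col1a2 and Col3a1. Of these 7 markers 3 were higher and 4 lower, with a median log2 ratio of -0.01 against 0.03 for all genes. Dcn was 55.4 CPM against 74.8 CPM. The genes of the class II antigen presentation list had a median log2 ratio of 2.60, which became 0.08 without pool B and 0.48 in cells without immune marker UMIs. Its member Cd74 was 243 CPM against 36.9 CPM, with 54.3% of the former in 1 cell, and its log2 ratio of 2.72 became -0.50 without pool B. The macrophage markers were 185 CPM against 19.3 CPM. The cell cycle list had a median of 2.01, and of 0.48 in cells without immune marker UMIs. The part of other cells' RNA in these differences was not tested.

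**Figure D3:**
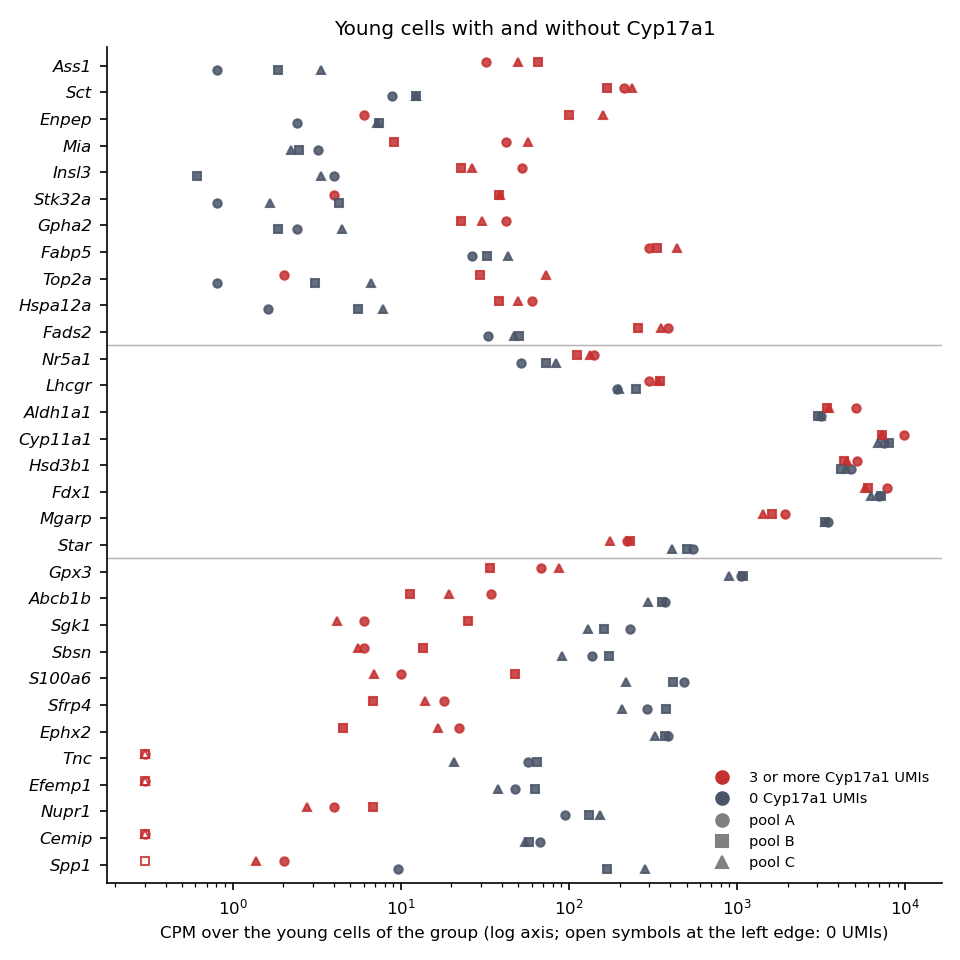
Level of each gene in CPM (x axis, log scale) in young Aldh1a1/Mgarp cells with 3 or more Cyp17a1 UMIs (red) and with 0 (grey), for each pool by symbol; open symbols at the left edge stand for 0 UMIs. The upper block holds genes higher with Cyp17a1 such as Sct, the middle block steroid-making genes, where Cyp11a1, Hsd3b1 and Fdx1 nearly coincide, and the lower block genes lower with Cyp17a1 such as Gpx3.

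Age was then compared within the Aldh1a1/Mgarp cells, 59 aged against 739 young. Of 8758 genes with at least 50 UMIs, 239 (2.73%) were at least 2-fold higher and 528 (6.03%) at least 2-fold lower in aged cells. Pools of 1 group, which are technical repeats, also differed by 2-fold or more, counting both directions together. This held for 1.24% to 1.48% of genes in young, 3.77% to 9.23% in aged and 5.56% to 6.01% in treated cells. Single pools hold fewer cells than the summed groups, so these shares are not directly comparable with those between groups. By sign alone, 61.1% of 10713 genes with at least 20 UMIs were higher with age and 38.9% lower, with a median log2 ratio of 0.14 after 1 UMI was added to each count. Over the 8758 genes, without the added UMI and with counts of 0 set to 3 UMIs, the median was -0.0040.

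The genes of the first steroid steps were lower in aged cells. Cyp11a1 was 8098, 7665 and 6945 CPM in the young pools and 3906, 4356 and 2607 CPM in the aged pools, a log2 ratio of -0.93 (-1.002 to -0.87). Star was 448, 426 and 342 CPM against 362, 117 and 211 CPM, a log2 ratio of -0.65 (-0.93 to -0.38). The young and aged pools were separate for Cyp11a1 and overlapped for Star. Fdx1 was 6558 CPM in young and 5263 CPM in aged cells, Hsd3b1 4472 and 3855 CPM, and Tspo 353 and 273 CPM.

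Cyp17a1, a gene of the rule that chose the cells, did not follow them. It was 1012, 769 and 1144 CPM in the young pools and 1125, 1499 and 268 CPM in the aged pools. Its log2 ratio of 0.24 (0.11 to 0.37) became -0.17 without pool B, -0.15 in cells thinned to 1000 UMIs and -0.29 as a mean over cells. Of 11 steroid synthesis genes 8 were lower with age, beside 38.9% of all genes, with a median log2 ratio of -0.21 against 0.14 for all genes.

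The receptor and its transcription factor were on the other side. Lhcgr was 229, 265 and 239 CPM in young and 476, 327 and 326 CPM in aged pools, a log2 ratio of 0.72 (0.50 to 0.94), with every aged pool above every young one. Nr5a1 was 86.2 CPM in young and 124 CPM in aged cells, but 38.3 CPM in the aged cells of pool C. Insl3 had 70 UMIs in young cells and 1 UMI in aged cells, a log2 ratio of -2.26 with an interval from -7.58 to 0.27. Inha, the inhibin alpha subunit, was 721 CPM in young and 377 CPM in aged cells, with the aged pools at 383, 344 and 460.0 CPM below every young one.

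The genes that marked the cells were lower with age too. Aldh1a1 and Mgarp among them also chose the cells, so their values describe the selected cells. Aldh1a1 was 3795, 3107 and 3308 CPM in young and 1993, 1382 and 2453 CPM in aged pools. Mgarp was 3003, 2880.4 and 2769 CPM against 1769.8, 1767 and 1687 CPM. Hao2 was 785, 753 and 649 CPM against 287, 245 and 172 CPM. For all 3 genes the pools of the groups were separate, and the log2 ratios were -0.89, -0.71 and -1.48. Adh1 was lower by 1.22 on the log2 scale, Bpifb4 by 1.27, Cst8 by 1.05 and Me1 by 0.60.

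**Figure D4:**
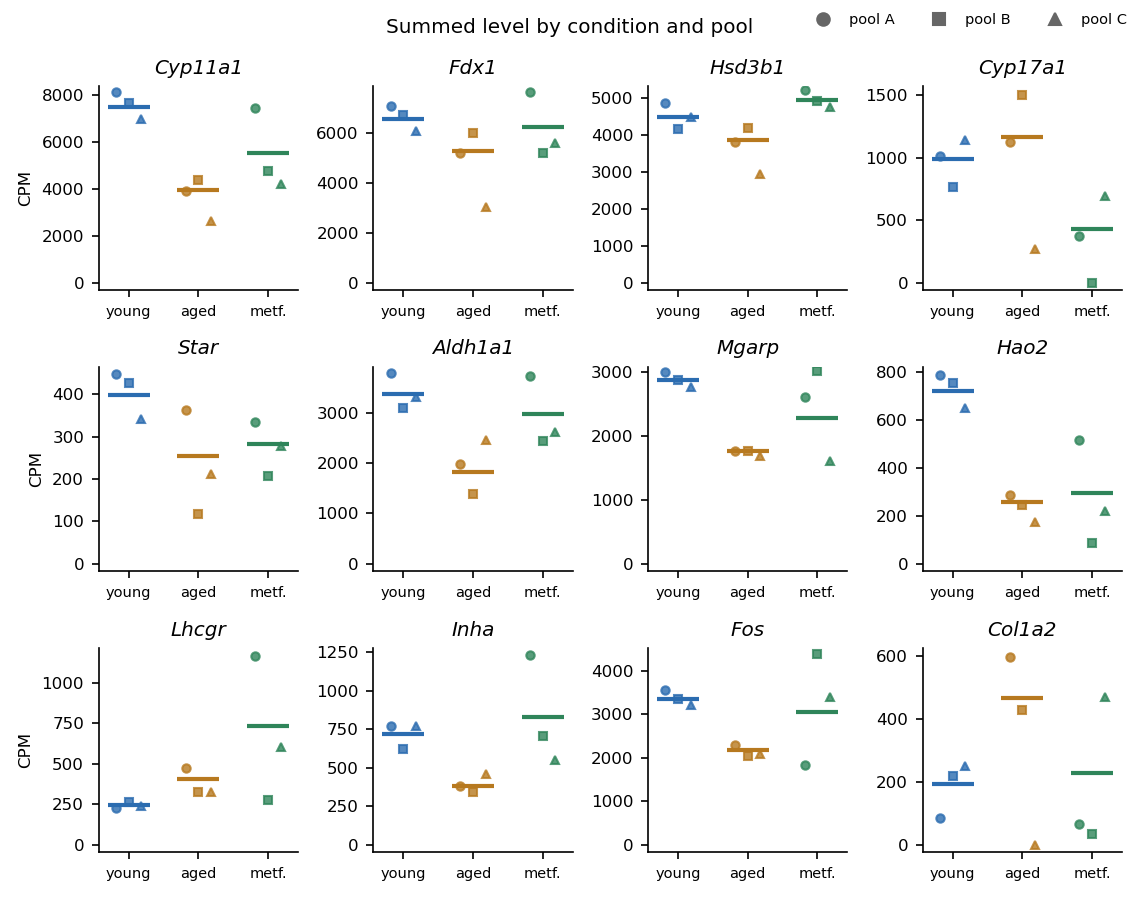
Level in CPM (y axes, from 0) of 12 genes in the Aldh1a1/Mgarp cells of young, aged and metformin-treated aged (metf.) ovaries; symbols are the pools and lines the level over the 3 pools summed. For Cyp11a1, Aldh1a1, Mgarp, Hao2, Inha and Fos every aged pool lies below every young pool, while Lhcgr is higher in every aged pool. Cyp17a1, Aldh1a1 and Mgarp also chose the cells.

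Among the genes named by size, those higher in aged cells were few molecules each. Ogn, a small matrix proteoglycan, was 78.2, 82.2 and 68.6 CPM in young and 126, 245 and 1207 CPM in aged pools. Ces2g, a carboxylesterase, was 5.03 CPM in young and 36.9 CPM in aged cells. Pcp4l1 was 17.8 and 75.9 CPM. Each of these was higher in every aged pool, as were Angpt2, a ligand of the vessel receptor Tie2, at 5.03 against 45.6 CPM, and Ass1 at 13.9 against 69.4 CPM. Complement C3 was 12.7 against 86.8 CPM, and 57.5% of the aged UMIs came from 1 cell.

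On the lower side, Dnajb1, a co-chaperone, was 214 CPM in young and 58.6 CPM in aged cells. Mgat4c was 111 and 23.9 CPM. Sorl1, a sorting receptor, had 208 UMIs in young cells and 1 UMI in aged cells (log2 ratio -3.83, -9.14 to -1.33). Trf, transferrin, had 375 UMIs in young and 2 UMIs in aged cells (-3.68, -6.73 to -1.81). Apoa1 and Ifit1 had 0 UMIs in aged cells, at least 4.39-fold and 4.14-fold lower than in young cells against a floor of 3 UMIs. For Apoa1, 48.7% of the young UMIs came from 1 cell.

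Immediate early and stress genes, which respond within minutes to stimuli that include tissue digestion, were lower together in aged cells. Of 23 genes 21 were lower, beside 38.9% of all genes, and the median log2 ratio was -0.62, with -0.61, -0.75 and -0.69 in the pools. Fos was 3554, 3341 and 3202 CPM in young and 2296, 2035 and 2089 CPM in aged pools. Junb was 1343 and 781 CPM over the groups, Zfp36 504 and 271 CPM, Klf4 137 and 47.7 CPM, and Hspa1b 149 and 54.2 CPM. The alternatives gave medians from -0.61 to -0.90. The same list was not lower in fibroblasts, where 18 of 23 genes were higher in aged cells with a median of 0.37. In follicular granulosa cells 16 of 23 were lower, with a median of -0.25. Over all genes the medians were 0.0022 in fibroblasts and 0.18 in follicular granulosa cells.

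Energy genes were slightly lower. The counts for these cells stand beside 38.9% of all genes lower and 61.1% higher, with a median log2 ratio of 0.14. All 13 mitochondrially encoded genes were lower with age, with a median log2 ratio of -0.32 but 0.03 in pool C. mt-Nd2 was 5208 CPM in young and 3701 CPM in aged cells, while mt-Co1 was 13069 and 12947 CPM. Of 22 nuclear genes of oxidative phosphorylation 21 were lower with a median of -0.20, among them Ndufa1 by 0.61 and Sdhb by 0.40 on the log2 scale. Of the fibroblasts' 22 genes 21 were lower as well, with a median of -0.13 against 0.0022 for all genes there. Antioxidant genes were divided, 8 higher and 10 lower: Hmox1, haem oxygenase, was 32.9 CPM in young and 91.1 CPM in aged cells, and Gstm1 1145 and 1647 CPM, while Sod1 was 385 and 269 CPM and Prdx3 344 and 215 CPM.

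Of 18 cholesterol synthesis genes 13 were lower, beside 38.9% of all genes, with a median log2 ratio of -0.25 that became 0.05 without pool B. Hmgcs1, an early enzyme of the pathway, was 377 CPM in young and 269 CPM in aged cells. Soat1, which esterifies cholesterol for storage, was 1188 and 1354 CPM, and Scarb1 156 and 117 CPM. In the follicular granulosa cells 17 of 18 synthesis genes were higher with age, with a median of 1.25 against 0.18 for all genes there. The steroid synthesis list had a median of 1.43 there, with 10 of 11 genes higher. In the Aldh1a1/Mgarp cells it was -0.21, against 0.14 for all genes. These differences between cell types were not tested.

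Matrix genes were higher in the aged Aldh1a1/Mgarp cells of 2 pools. Of 22 genes 19 were higher, beside 61.1% of all genes, and 9 were at least 2-fold higher. The median log2 ratio was 0.81, with 1.15, 0.83 and -0.06 in the pools. Col1a2 was 84.6, 217 and 250.4 CPM in young and 594, 426 and 0 CPM in aged pools. Dcn, decorin, was 68.7 and 187 CPM over the groups, and its log2 ratio of 1.44 became -0.33 among cells without Cyp17a1 UMIs. Sparc, another matrix protein, was lower, at 666 and 430.0 CPM. The 7 stromal fibroblast markers summed to 678 CPM in young cells (414 to 802 over pools) and 1315 CPM in aged cells (441 to 1593), with none of the 7 at 0 in any group. Their part in the matrix values was not tested.

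Hedgehog signalling from the follicle is known to act on theca cells. Hhip, a target and antagonist of the pathway, was 25.2 CPM in young and 78.1 CPM in aged cells, but 0 CPM in the aged cells of pool C. Of 8 measured hedgehog genes 5 were higher, with a median log2 ratio of 0.31; this count and the next ones stand beside 61.1% of all genes and their median of 0.14. Of 14 insulin and IGF signalling genes 10 were higher with a median of 0.37, among them the insulin receptor Insr at 28.3 and 52.1 CPM. Of 10 retinoid genes 8 were higher with a median of 0.54, although Aldh1a1 itself was lower.

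Interferon and class I genes had a median log2 ratio of -0.63, with 10 of 15 lower, beside 38.9% of all genes. The median was 0.14, -0.23 and -0.18 in the single pools and 0.14 in thinned cells. B2m, the class I light chain, was 189 and 119 CPM. The class II list had a median of -1.14, which became 0.66 without pool B; the macrophage markers summed to 60.1 CPM in young cells, from 16.1 to 142.9 over the pools, and 21.7 CPM in aged cells, with Adgre1 at 0. The cell cycle list had a median of 0.40, with 10 of 14 genes higher, beside 61.1% of all genes, and 1.48, 0.74 and 0.91 in the pools. The 1 UMI added to each count weighs more in the smaller aged totals, which lifts such single-pool values for rare genes. The summed cell cycle levels were 210 CPM in aged and 171 CPM in young cells. The interval lay above 0 for 2 of the genes and below 0 for 1, Top2a. Other medians were: luteinizing hormone signalling at 0.07, cholesterol uptake and storage at 0.01, follicle ligands at -0.08, cytokines at 0.02 and AMPK at 0.21.

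**Figure D5:**
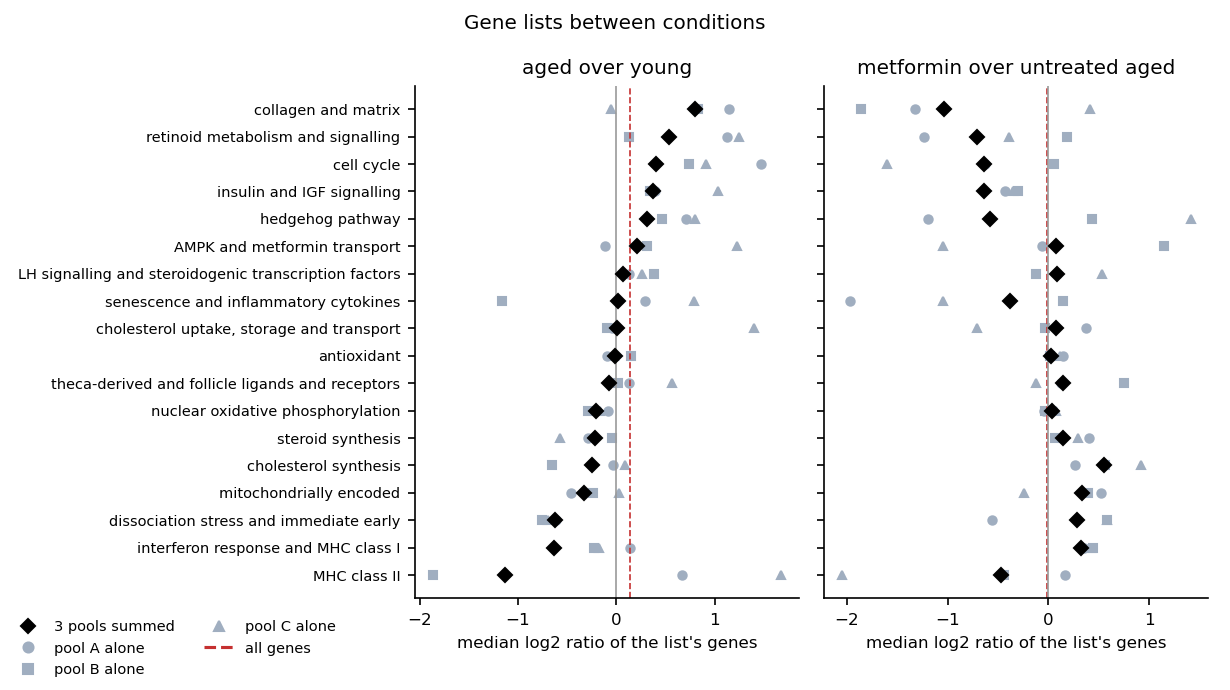
Median log2 ratio of the genes of each list (x axes) for aged over young (left) and metformin-treated over untreated aged Aldh1a1/Mgarp cells (right); diamonds are the 3 pools summed, grey symbols single pools, and the dashed line the median of all genes. The immediate early list lies between -0.61 and -0.75 in every pool on the left, whereas collagen, mitochondrial and several small lists change sign between pools.

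Metformin was compared in 79 treated against 59 untreated aged cells, with the same untreated cells as in the age comparison. Of 2942 genes with at least 50 UMIs, 44 (1.5%) were at least 2-fold higher and 44 (1.5%) at least 2-fold lower. The shares between technical repeats given above count both directions and come from single pools with fewer cells and genes. They are thus not on the same footing. By sign, 49.1% of 5719 genes were higher and 50.9% lower, with a median log2 ratio of -0.01.

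Several genes of the cells were higher after treatment. Cyp11a1 was 7454, 4757 and 4213 CPM in the treated pools against 3906, 4356 and 2607 CPM, a log2 ratio of 0.49 (0.40 to 0.57), with higher values in each pool but overlapping ranges. Hsd3b1 was 5209, 4903 and 4745 CPM against 3809, 4193 and 2952 CPM, a log2 ratio of 0.36 (0.27 to 0.45), with separate ranges. Aldh1a1, which also chose the cells, was 3729.5, 2447 and 2620.2 CPM against 1993, 1382 and 2453 CPM, a log2 ratio of 0.71 (0.59 to 0.84). Star was 282 and 254 CPM over the groups, a log2 ratio of 0.15 with an interval from -0.21 to 0.51, and Fdx1 6243 and 5263 CPM.

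Cyp17a1, also a gene of the rule, was on the other side, at 377, 0 and 694 CPM in the treated pools against 1125, 1499 and 268 CPM. Its log2 ratio was -1.46 (-1.69 to -1.23), lower in pools A and B and higher in pool C, and 55% of its treated UMIs came from 1 cell. Insl3 had 0 UMIs in treated and 1 UMI in untreated cells. Of the 11 steroid synthesis genes 6 were higher and 5 lower, beside 49.1% and 50.9% of all genes, with a median of 0.15. Hsd17b7, which acts in both oestrogen and cholesterol synthesis and is also a gene of the luteal marker list, was 81.1 CPM against 23.9 CPM.

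Of 8 measured follicle ligands and receptors 4 were higher, with a median log2 ratio of 0.14 and 0.12, 0.75 and -0.13 in the pools. Of 16 luteinizing hormone signalling genes 11 were higher, with a median of 0.08. Both counts stand beside 49.1% of all genes. Inha was 1232, 707 and 551 CPM in treated against 383, 344 and 460.0 CPM in untreated pools, a log2 ratio of 1.14 (0.88 to 1.40), with separate ranges. Amhr2, the receptor for anti-Müllerian hormone, was 106 CPM against 49.9 CPM, higher in each pool. Lhcgr was 1168, 276 and 602 CPM against 476, 327 and 326 CPM, lower in pool B, a log2 ratio of 0.86 that became 0.47 without the 1 cell that held 26.4% of its treated UMIs. Folr1 was 541 CPM against 315 CPM, and Adh1 366, 267 and 181 CPM against 84.3, 81.6 and 38.3 CPM, a log2 ratio of 1.77 (1.23 to 2.34).

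Adh1 was 1 of the genes named by size on the higher side, and Kcnk3, a potassium channel, was another, at 156, 94.8 and 74.1 CPM in treated and 37.9, 23.3 and 0 CPM in untreated pools. Single cells held most of the UMIs of others: 95.2% of the treated UMIs of S100a8, a neutrophil protein, came from 1 cell, 88.8% of Ccl4 and 74.2% of Gsta3. Sfrp4 was 734 CPM against 206 CPM, and 89.5% of the untreated UMIs came from 1 cell. Ptgfr, a gene of the rule, was 85.0 CPM against 26.0 CPM, with 4 treated and 4 untreated cells carrying a UMI. Of 5 measured luteal markers, these 2 genes among them, 5 were higher, beside 49.1% of all genes, with a median log2 ratio of 1.62. The summed luteal markers were 1944 CPM in treated cells (1467 to 2400 over pools) and 1282 CPM in untreated cells (958 to 1709), with overlapping ranges.

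On the lower side, Gpx3 was 203 CPM against 1065 CPM, and 71.5% of the untreated UMIs came from 1 cell. Pak3, a kinase, was 135, 77.6 and 102 CPM in treated and 269.7, 402 and 192 CPM in untreated pools, with separate ranges. Id2, an inhibitor of transcription factors, was 156 CPM against 371 CPM, Sulf2, a heparan sulphatase, 23.2 against 82.4 CPM, Znhit6 32.8 against 106 CPM, and Ran, a nuclear transport GTPase, 228 against 484 CPM. All 4 were lower in each pool. C3 had 0 UMIs in treated cells, at least 15.0-fold lower against a floor of 3 UMIs.

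Cholesterol synthesis genes were higher together after treatment. Of 14 measured genes 12 were higher, beside 49.1% of all genes, with a median log2 ratio of 0.55 and 0.27, 0.56 and 0.91 in the pools. Without 1 pool in turn the median was 1.10, 0.39 or 0.36, and in thinned cells 0.13. Cyp51 was 131 CPM against 65.1 CPM, Msmo1 307 against 199.6 CPM and Fdft1, squalene synthase, 69.5 against 36.9 CPM. In the follicular granulosa cells 14 of 17 genes of this list were lower after treatment, with a median of -0.30 against 0.03 for all genes there. That difference between the cell types was not tested.

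The energy, early response and matrix lists depended on the pool. Their counts stand beside 49.1% of all genes higher and 50.9% lower after treatment. All 13 mitochondrially encoded genes were higher after treatment, with a median log2 ratio of 0.33 but -0.24 in pool C, and the median mitochondrial share of the cells was 9.71% against 8.16%. Of 22 immediate early genes 16 were higher with a median of 0.28, but -0.56 in pool A; Fos was 1835, 4395 and 3393 CPM against 2296, 2035 and 2089 CPM. Hspa1a, a heat shock protein, was lower, at 21.2 CPM against 73.8 CPM. Of 17 matrix genes 16 were lower with a median of -1.03, but 0.41 in pool C, and Col1a2 was 64.6, 34.5 and 468 CPM against 594, 426 and 0 CPM. Beside it, the stromal fibroblast markers were 601 CPM in treated cells (198 to 1060 over pools) against 1315 CPM, and their part was not tested.

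Of 12 insulin and IGF genes 9 were lower after treatment, beside 50.9% of all genes. Their median log2 ratio was -0.64, with -0.43, -0.30 and -0.35 in the pools. Igfbp7, a secreted IGF-binding protein, was 448 CPM against 833 CPM, and Igfbp6 32.8 against 104 CPM. Of the genes that act on AMPK, the kinase linked with metformin, only 3 could be measured, with a median of 0.07. Of 9 interferon and class I genes 6 were higher, beside 49.1% of all genes, with a median of 0.33, or -0.19 in thinned cells. Gclc, which makes glutathione, was 156 CPM against 84.6 CPM, and Gsta4, a glutathione transferase, 54.1 against 121 CPM.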

How the data were processed

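Mouse ovarian cells were measured with 10x 3′ v3 chemistry and MULTI-seq tags, per the labels' protocols, and reads were counted with Cell Ranger 3.0.2 on GRCm38 (mm10), per the submitters' processing notes. The authors deposited raw UMI counts per gene and cell (18789 genes, 14353 cells), with the percent of mitochondrial UMIs, cell cycle scores, cell class, tag and condition of each cell. The lowest deposited total is 500 UMIs per cell and the highest mitochondrial share 20.0%; the sources used here do not give the tag assignment and cell filters. The list of tag sequences was not used, and middle-aged and reversal mice of the design were not analysed here. Each tag carried 1 condition.

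The cells were found by the UMI rule given above, and their counts were summed per condition and per pool (6753830 young, 460968 aged and 517881 treated UMIs) and scaled to CPM with Python 3.11.15, numpy 2.4.6, scipy 1.17.1 and pandas 2.3.3. Figures were drawn with matplotlib 3.10.9. Log2 ratios and ratios of shares have exact conditional intervals, and shares exact Clopper-Pearson intervals. Genes entered the 2-fold counts with at least 50 UMIs over both groups. List genes needed at least 20 UMIs, and 1 UMI was added to each count for list medians. Cells under 1000 UMIs (2 of the 877) were left out where cells were thinned. The scripts were tested on simulated data.

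Named genes were a fixed set of steroid and marker genes, the 6 highest and 6 lowest of each comparison (12 for the division by Cyp17a1) by the interval bound nearest 0 with the same sign in every pool of at least 5 cells, the most abundant list genes and those whose interval excluded 0. The genes, cells and lists were chosen with earlier results of these data known. Alternatives were each pool left out, strict inequality in the rule, other minimum counts, 5 UMIs added, means over cells, thinning, centring on the median and, chosen after seeing the data, cells without Cyp17a1 or immune marker UMIs. Gene positions are from a GENCODE annotation of GRCm38.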

Additional observations from a re-analysis of the deposited data

How the results depend on the processing

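With 1 suspension per group there is no measure of variation between mice, and the 59 aged and 79 treated cells limit every value that concerns them; the pools repeat only the droplet run and sequencing. No paired analysis was possible because the 3 pools form 1 group and hold the same suspensions, and no test was run. The share ratios for aged over young ranged from 0.169 to 0.264 without 1 pool, and for treated over aged from 0.905 to 1.20. The number of genes at least 2-fold higher with age was 46 in thinned cells, 514 at a minimum of 20 UMIs and 84 at a minimum of 100; at least 2-fold lower were 237 in thinned cells and 264 at a minimum of 100. For metformin the higher genes numbered 22 in cells without immune marker UMIs, 5 thinned, 212 at 20 UMIs and 9 at 100. The lower ones numbered 21 to 66 without 1 pool, 21 in cells without Cyp17a1, 26 without immune markers, 4 thinned, 196 at 20 UMIs and 13 at 100. Thinning and higher minimums leave fewer genes by construction; the cause of the other shifts was not tested.

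Of 154 log2 ratios of named genes, 1353 alternative values held 1043 within the counting interval of the main ratio, 299 outside it and 11 of opposite sign. The last were Cyp17a1 with age (-0.15 thinned, -0.29 as a mean over cells, -0.17 to 0.54 without 1 pool, lowest without pool B), Folr1 (0.0097) and Fdft1 (0.018) with age in thinned cells, and Dcn with age (-0.33 in cells without Cyp17a1). With Cyp17a1 in young cells they were Cd74 (-0.29 without immune markers, -0.50 to 3.39 without 1 pool), Cyp11a1 (-0.028 to 0.23 without 1 pool, lowest without pool A) and Fdx1 (0.097 without immune markers, -0.18 to 0.014 without 1 pool, highest without pool B). Of 43 list medians, 433 alternative values included 68 beyond the spread between pools and 2 of opposite sign past it, both for the interferon list in thinned cells (0.14 with age, -0.19 with metformin). For 34 gene ratios thinning left too few UMIs for a value.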
